A study of Homo sapiens with 6 samples.

Results

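Phospholipase C and the type I phosphatidylinositol 4-phosphate 5-kinases (PIP5 kinases) were followed in HEK293 cells labelled as wild type or as a knockout of MUL1, a ubiquitin ligase of the mitochondrial outer membrane. The genes are 10 of the 57123 in the count tables and were taken by name, with earlier results of these data known. They are the phospholipase C genes PLCB1, PLCB2, PLCB3, PLCB4, PLCG1, PLCD1 and PLCE1 and the PIP5 kinase genes PIP5K1A, PIP5K1B and PIP5K1C. The study itself named PIP5K1C and PLCB2 from these libraries, so their calls are not independent evidence of a direction. HEK293 is a line derived from human embryonic kidney. RNA of 3 wild-type (WT) libraries and 3 libraries of HEK293 MUL1(-/-) cells, labelled MUL1 KO, was sequenced, and all 6 came from cells grown in DMEM with fetal calf serum, glutamine and antibiotics, with no other treatment given in the labels. The study describes a pair of independent MUL1(-/-) clones for its protein blots, and which clone gave the RNA is not given in the sources used here. The study's methods speak in general of independent experiments behind its quantitative data, but neither they nor the labels say of these RNA libraries that those of a genotype came from separate cultures, so the p-values measure the spread between these libraries, which may be technical.

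PIP5 kinases add a phosphate to phosphatidylinositol 4-phosphate at the plasma membrane and so make phosphatidylinositol 4,5-bisphosphate, PI(4,5)P2. Phospholipase C cuts PI(4,5)P2 into inositol trisphosphate, which opens calcium channels of the endoplasmic reticulum, and diacylglycerol, which recruits protein kinase C and other effectors. The isozymes differ in what switches them on: the beta forms answer to Gq proteins, the gamma forms to tyrosine kinases, the epsilon form to small GTPases of the Ras family, and the delta forms to calcium.

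Counts summed over the exon bins of all genes ranged from 127015142 to 142803296 over the WT libraries and from 121917971 to 122441959 over the MUL1(-/-) libraries. A read that spans several bins is counted in each of them, and with only the most counted bin of each gene the totals were 23786595 to 28116993. Levels are given below as counts per 1000000 counts of a library (CPM) after TMM scaling, and fold changes as MUL1(-/-) over WT on the log2 scale with their standard error (SE) from edgeR's quasi-likelihood fit to all 25125 tested genes, with Benjamini-Hochberg adjustment over those genes. All 10 genes passed the filter on low counts, and the lowest count of any of them in any library was 52, for PLCB2.

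MUL1 itself (ENSG00000090432, chr1:20499448-20508161, minus strand) was read at 15.4, 15.2 and 19.0 CPM in WT and at 18.7, 16.7 and 19.2 CPM in MUL1(-/-) libraries. The groups overlapped, and the log2 fold change was 0.14 (SE 0.10, n = 3 per group, adjusted p = 0.321 in edgeR's test). None of its 4 exon bins was called as departing from the gene as a whole in the exon usage test given below. Of the 20 tested genes nearest to MUL1, 14 were lower and 0 higher at an adjusted p under 0.05 in edgeR's test, with a median log2 fold change of -0.54. MUL1 RNA was thus not lower in the libraries labelled MUL1 KO, and counts of reads do not show a small edit, so this gene does not check the labels. The groups are named by their labels throughout.

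Of the 10 genes, 1 rose and 1 fell past both thresholds of the study's methods, which ask for an adjusted p below 0.05 together with a log2 fold change beyond 1 in either direction. PIP5K1C rose and PLCB2 fell. The same thresholds called 8.11% of all tested genes, 4.23% higher and 3.87% lower. At the adjusted p alone, PIP5K1C and PLCB4 were higher and PLCB2, PLCG1 and PLCE1 lower, 5 of 10 against 37.5% of all tested genes. In the same 5 genes the WT and MUL1(-/-) libraries did not overlap, as they did not in 48.5% of all tested genes. The median log2 fold change of the 10 genes was -0.04, and that of all tested genes was -0.01. With 10 genes, 1 call in each direction is not read as a result about the group, and what follows is the account of single genes. In such bulk libraries, fewer cells that express a gene and less RNA per cell cannot be told apart.

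Among the kinases, PIP5K1C (ENSG00000186111, chr19:3630183-3700479, minus strand) encodes the gamma form, which supplies PI(4,5)P2 at focal adhesions and at synapses. Its level was 17.8, 17.3 and 19.5 CPM in WT and 38.5, 33.9 and 41.5 CPM in MUL1(-/-) libraries. Every MUL1(-/-) library lay well above every WT library. The log2 fold change was 1.06 (SE 0.09, n = 3 per group, adjusted p = 4.2e-07 in edgeR's test), a 2.09-fold rise with a 95% interval of 0.89 to 1.24 on the log2 scale. The interval includes the fold threshold of 1, and without MUL1 KO replicate 3 the value was 0.99 and no longer past it.

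PIP5K1A (ENSG00000143398, chr1:151197949-151249536, plus strand), the alpha form, is the most abundant of the 3 kinases in these cells. It was read at 151, 148 and 161 CPM in WT and at 159, 148 and 157 CPM in MUL1(-/-) libraries. The libraries overlapped throughout, and the log2 fold change was 0.01 with a 95% interval of -0.12 to 0.14 (adjusted p = 0.891 in edgeR's test). PIPSL, a processed copy of PIP5K1A joined to another gene on chromosome 10, was read at 0.718 CPM in WT and 0.683 CPM in MUL1(-/-) libraries on average (log2 fold change -0.07). How the authors' counting split reads that fit both is not given in the sources used here.

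PIP5K1B (ENSG00000107242, chr9:68705414-69009176, plus strand), the beta form, was rare. Its level was 2.91, 2.62 and 2.05 CPM in WT and 1.95, 2.31 and 1.85 CPM in MUL1(-/-) libraries. WT replicate 3 lay among the MUL1(-/-) libraries, and the log2 fold change of -0.31 (SE 0.15, adjusted p = 0.129 in edgeR's test) missed the threshold. Without WT replicate 3 it was -0.44 with an adjusted p of 0.0289 by edgeR.

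Of the beta phospholipases, PLCB4 (ENSG00000101333, chr20:9068763-9481242, plus strand), known for its role in the retina and the cerebellum, was higher in MUL1(-/-) libraries. It was read at 12.4, 13.2 and 13.8 CPM in WT and at 19.8, 19.7 and 17.3 CPM in MUL1(-/-) libraries. The groups did not overlap. The log2 fold change was 0.53 (SE 0.09, adjusted p = 0.000281 in edgeR's test), a 1.44-fold rise that stayed under the fold threshold.

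PLCB1 (ENSG00000182621, chr20:8077251-8968360, plus strand), a Gq-responsive isozyme with both membrane and nuclear forms, lies next to PLCB4 on the same strand of chromosome 20. PLCB1 was read at 31.0, 33.1 and 29.5 CPM in WT and at 30.4, 31.2 and 34.4 CPM in MUL1(-/-) libraries. These ranges overlapped, and the log2 fold change was 0.04 with a 95% interval of -0.12 to 0.19 (adjusted p = 0.753 in edgeR's test). PLCB3 (ENSG00000149782, chr11:64251523-64269150, plus strand), the beta isozyme with the highest level per length here, was read at 39.8, 35.5 and 37.9 CPM in WT and at 43.2, 39.9 and 39.4 CPM in MUL1(-/-) libraries. Its groups overlapped by a small margin, and the log2 fold change was 0.11 (SE 0.08, adjusted p = 0.269 in edgeR's test).

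PLCB2 (ENSG00000137841, chr15:40278176-40307935, minus strand), an isozyme of blood cells and taste cells, had the fewest counts of the 10 genes. Its counts were 155, 132 and 117 in WT and 57, 52 and 81 in MUL1(-/-) libraries, or 1.22, 0.933 and 0.929 CPM against 0.451, 0.415 and 0.654 CPM. All MUL1(-/-) libraries lay under all WT libraries. The log2 fold change was -1.02 (SE 0.21, adjusted p = 0.00145 in edgeR's test) with a 95% interval of -1.43 to -0.60. These counts are spread thinly over 67 bins, of which the fullest held 17 counts over the 3 WT libraries and 8 over the 3 MUL1(-/-) libraries. The value moved back above -1 when WT replicate 1 (-0.88), MUL1 KO replicate 1 (-0.93) or MUL1 KO replicate 2 (-0.88) was left out. It also lay above -1 with library totals as the scale (-0.95), without a low-count filter (-0.98) and with bins shared with other genes left out (-0.98).

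PLCG1 (ENSG00000124181, chr20:41136960-41196801, plus strand), which growth factor receptors activate by phosphorylation, had the largest loss in absolute level. It was read at 235, 221 and 217 CPM in WT and at 120, 118 and 119 CPM in MUL1(-/-) libraries. The 3 MUL1(-/-) libraries were nearly identical and lay far under WT. The log2 fold change was -0.91 (SE 0.06, adjusted p = 6.6e-08 in edgeR's test), or 0.53 of the WT level. By its p it ranked 179 among the tested genes, ahead of PIP5K1C at 329, although it missed the fold threshold that PLCB2, at rank 4184, passed. The antisense gene PLCG1-AS1 lies over its start, and 3.86% of PLCG1 counts were in bins that exons of other genes touch on either strand. Whether counting used strand is not given in the sources used here.

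PLCE1 (ENSG00000138193, chr10:94030812-94332823, plus strand), the Ras-responsive isozyme known from the kidney's podocytes, was lower in MUL1(-/-) libraries. It was read at 32.0, 31.4 and 28.1 CPM in WT and at 21.1, 23.7 and 21.7 CPM in MUL1(-/-) libraries, with no overlap. The log2 fold change was -0.46 (SE 0.08, adjusted p = 0.000467 in edgeR's test). PLCD1 (ENSG00000187091, chr3:38007496-38029762, minus strand), a calcium-sensitive delta isozyme, was read at 2.81, 2.70 and 2.43 CPM in WT and at 2.51, 2.68 and 2.28 CPM in MUL1(-/-) libraries. Its groups overlapped and the log2 fold change was -0.09 with a 95% interval of -0.34 to 0.17 (adjusted p = 0.644 in edgeR's test).

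**Figure D1:**
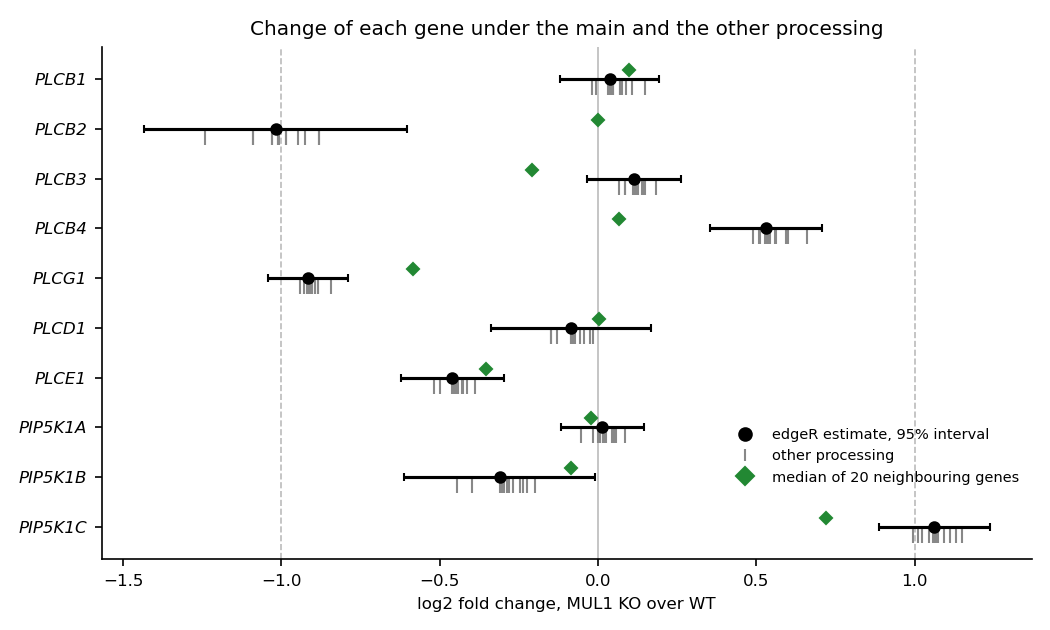
Log2 fold change of each gene, MUL1 KO over WT (horizontal axis), as the edgeR estimate with its 95% interval (black), under the other ways of processing the counts (grey ticks), and as the median of the 20 neighbouring tested genes (green diamonds); dashed lines mark -1 and 1. The interval of PIP5K1C includes 1 and those of PLCB2 and PLCG1 include -1. The green diamonds furthest from 0, those of PIP5K1C, PLCG1 and PLCE1, lie on the same side of 0 as the genes. Those of PLCB4, PLCB1 and PIP5K1B also do, those of PLCB3, PLCD1 and PIP5K1A do not, and that of PLCB2 is at about 0.

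To compare the genes with each other, CPM were divided by the summed length of each gene's bins in kilobases. In WT the order was PIP5K1A (28.3 ± 1.3 CPM per kb, SD, n = 3), PLCG1 (23.5 ± 0.97), PLCB3 (7.61 ± 0.43), PIP5K1C (2.61 ± 0.17), PLCE1 (2.36 ± 0.16), PLCB4 (1.90 ± 0.10), PLCB1 (1.79 ± 0.10), PLCD1 (0.613 ± 0.045), PIP5K1B (0.514 ± 0.089) and PLCB2 (0.140 ± 0.023). The libraries of PLCB4 and PLCB1 overlapped, as did those of PLCD1 and PIP5K1B, so neither pair is ordered beyond its spread. In MUL1(-/-) libraries PLCB4 (2.75 ± 0.21) stood clear of PLCB1 (1.84 ± 0.12), and PLCE1 (1.71 ± 0.11) came after both, its libraries overlapping those of PLCB1. PLCG1 remained second at 12.5 ± 0.14 CPM per kb. The summed length includes alternative exons, which lowers this measure for genes with many of them. With the median bin per base in its place, which was computed for WT alone, PLCG1 and PIP5K1A changed places at the top of the WT order, and the other 8 genes kept theirs in it.

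The share of each gene in its family was computed from the same levels. PIP5K1C made up 8.25%, 8.18% and 8.46% of the summed level per kb of the 3 kinase genes in WT and 15.7%, 14.8% and 16.9% in MUL1(-/-) libraries. The groups were far apart (exact permutation test, two-sided, p = 0.1, the smallest that 3 against 3 can give; 0.156 adjusted over 14 such measures). PIP5K1A, whose own level did not pass the test, made up 90.1% ± 0.22 of that sum in WT and 83.0% ± 0.85 in MUL1(-/-) libraries and was the main kinase transcript in both. Its level per kb was 10.9 ± 0.17 times that of PIP5K1C in WT and 5.27 ± 0.39 times in MUL1(-/-) libraries. The summed level of the 3 kinase genes was 31.5 ± 1.4 CPM per kb in WT and 34.5 ± 1.5 in MUL1(-/-) libraries, and the libraries overlapped (exact permutation test, two-sided, p = 0.2, adjusted 0.233).

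Among the beta phospholipases, PLCB4 made up 16.6% ± 1.2 of the summed level per kb in WT and 21.3% ± 1.2 in MUL1(-/-) libraries, and these groups did not overlap (exact permutation test, two-sided, p = 0.1, adjusted 0.156). PLCB3 made up 66.5% ± 1.9 and 63.8% ± 1.0, and its libraries overlapped (exact p = 0.2, adjusted 0.233). The summed level of the 4 beta genes was 11.4 ± 0.33 CPM per kb in WT and 12.9 ± 0.45 in MUL1(-/-) libraries, higher in the latter with no overlap (exact p = 0.1, adjusted 0.156). The summed level of the 7 phospholipase C genes followed here was 37.9 ± 1.4 CPM per kb in WT and 27.6 ± 0.51 in MUL1(-/-) libraries. No libraries overlapped (exact permutation test, two-sided, p = 0.1, the smallest possible, adjusted 0.156). Other phospholipase C genes, such as PLCXD1 and PLCD3, were not in this sum. The difference in PLCG1 alone was larger than that in the sum, and PLCG1 made the largest contribution to it in both genotypes. PLCG1 stood at 17.1 ± 2.3 times the level per kb of the other gamma isozyme, PLCG2, in WT and at 12.6 ± 1.2 times in MUL1(-/-) libraries.

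The exon bins showed where along a gene the counts changed. In PIP5K1C all 27 tested bins were higher in MUL1(-/-) libraries, with log2 ratios from 0.55 to 1.46. In PLCG1 all 76 tested bins were lower, from -1.68 to -0.47, and in PLCB4 all 44 were higher. In PLCE1 34 of 35 tested bins were lower. PLCB1 had 40 bins higher and 27 lower, and PIP5K1A 23 higher and 19 lower. No bin of PLCB2 passed the filter on low counts. The test of exon usage in edgeR (diffSpliceDGE), which asks whether a bin departs from its gene, called 0 of the 359 tested bins of the other 9 genes, against 0.499% of 313115 bins in all genes, and 14 had an unadjusted p under 0.05. By gene, 11.4% of 16222 tested genes had changed exon usage, and none of these 9 did, with adjusted p from 0.926 to 1.00 in edgeR's Simes test. Neighbouring bins share reads and are not independent.

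PIP5K1C is made in several forms that differ at the 3′ end of the coding sequence. In GENCODE 29 the transcript PIP5K1C-201 codes for 668 residues and PIP5K1C-203, which skips an exon of 84 bases, for 640. That exon encodes the part of the tail by which the longer form is known to bind talin at adhesions. It lies at chr19:3633437-3633520 (GRCh38, minus strand) and is shown because the ratio below rests on it, in the sense direction and entirely in lower case:
PIP5K1C cassette exon: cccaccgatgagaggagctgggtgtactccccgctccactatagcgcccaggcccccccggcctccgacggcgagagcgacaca

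The exon was counted 27, 21 and 27 times in WT and 60, 54 and 70 times in MUL1(-/-) libraries, each MUL1(-/-) library lying above each WT library. As a share of the counts in the coding exon before it, of 133 bases, it stood at 30.7%, 17.5% and 27.8% in WT and at 28.3%, 27.8% and 32.4% in MUL1(-/-) libraries. These ranges overlapped (exact permutation test, two-sided, p = 0.5, adjusted 0.5), and at this depth no difference in the use of the exon was detectable. A bin of 1013 bases at chr19:3636601-3637613, within the alternative last exon of PIP5K1C-202, had a log2 ratio of 0.55 where the gene had 1.06. It stood at 58.0%, 42.5% and 47.4% of the same coding exon in WT and at 33.0%, 32.0% and 34.7% in MUL1(-/-) libraries. These groups did not overlap (exact permutation test, two-sided, p = 0.1, the smallest possible, adjusted 0.156), but the bin's departure from its gene did not pass edgeR's exon test (log2 difference -0.51, adjusted p = 0.35), and it was chosen after its values were seen.

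Promoters were taken from a RefSeq table (GRCh38.p14) that holds 7 starts of 6 of the 10 genes, namely PIP5K1A, PIP5K1B, PIP5K1C, PLCB3, PLCE1 and PLCG1. The 250 bases before the start are shown for PIP5K1C and PLCG1, the genes with the clearest rise and fall, at chr19:3700469-3700718 on the minus strand and chr20:41137293-41137542 on the plus strand, each in the sense direction of its gene. Capitals mark each GC box, GGGCGG or its reverse complement CCGCCC, the motif of SP1-type factors:
PIP5K1C promoter: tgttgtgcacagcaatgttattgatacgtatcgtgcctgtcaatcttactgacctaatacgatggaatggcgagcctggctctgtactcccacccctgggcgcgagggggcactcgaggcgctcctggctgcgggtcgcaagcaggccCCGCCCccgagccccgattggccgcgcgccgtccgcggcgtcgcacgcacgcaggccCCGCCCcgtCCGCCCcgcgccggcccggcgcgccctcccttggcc
PLCG1 promoter: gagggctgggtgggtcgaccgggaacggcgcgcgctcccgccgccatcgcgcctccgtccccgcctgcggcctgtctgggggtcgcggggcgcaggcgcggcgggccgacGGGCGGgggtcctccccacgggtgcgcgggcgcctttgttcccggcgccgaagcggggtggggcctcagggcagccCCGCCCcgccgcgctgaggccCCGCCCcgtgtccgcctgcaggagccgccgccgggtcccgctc

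Each of these windows held 3 GC boxes, at a GC content of 70.4% for PIP5K1C and 82.8% for PLCG1, so the gene that rose and the gene that fell did not differ in this count. A GC box stood in 42.6% of all 35116 promoters of the table. On both strands, the PIP5K1C window held CCAAT 1 time and the PLCG1 window 0 times (32.0% of all promoters hold it), neither held TATAAA (10.7%), and neither held ACGTG, the core of the hypoxia response element (18.5%). These are letters in a window and not shown to be sites. Exon bins within 60 bases of these starts held 133 counts in WT and 322 in MUL1(-/-) libraries for PIP5K1C, and 1607 and 937 for PLCG1. Of the PLCG1 counts, 1022 and 602 lay in a bin that exons of other genes touch on either strand. For PLCE1 the table's start, at chr10 position 94089026, is one that these cells barely used, with 5 and 2 counts. For PIP5K1B, the start at chr9 position 68705980 had 3 and 7 counts, and 0 bins lay within 60 bases of the start at 68705240.

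The 20 tested genes around each of the 10 genes were also read, 10 before and 10 after it in order of start position, so that genes lying within or across one of the 10 are included. Such overlapping genes were 1 of the 20 for PIP5K1C, PLCB2 and PIP5K1B each, 3 for PLCE1, 5 for PLCG1 and 0 for the others, and since use of strand in counting is not given, they are not separate neighbours in the way that flanking genes are. The largest window medians in size were those of PIP5K1C, PLCG1 and PLCE1, on the same side of 0 as the genes. The medians of the other 7 ranged from -0.21, for PLCB3, to 0.10, for PLCB1. For PIP5K1C the median log2 fold change of these 20 genes was 0.72, with 14 of the 20 higher at an adjusted p under 0.05 in edgeR's test, 0 lower, and 4 past both thresholds. The nearest by start were CACTIN (0.67) and CACTIN-AS1 (0.63) before it, and ENSG00000267304 (0.76, adjusted p = 0.174 by edgeR) and TJP3 (1.53) after it. ENSG00000267304 is an antisense gene that lies inside PIP5K1C, and its reads and those of PIP5K1C may not be told apart. Less this median, the change of PIP5K1C was 0.34. Chromosome 19 had the highest median of the 24 chromosomes compared, the mitochondrial one included, at 0.31, with 762 of its 1771 tested genes higher and 205 lower.

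For PLCG1 the window median was -0.58, with 12 of the 20 genes lower and 0 higher, and less this median the change was -0.33. Chromosome 20 had the lowest median of the 24, -0.35. PLCB1 and PLCB4 lie on the same chromosome, in windows with medians of 0.10 and 0.07, and PLCB4 was higher while PLCB1 did not pass the test. These 2 windows share most of their genes, among them BMP2, a secreted growth factor, which fell by 5.97 on the log2 scale (SE 0.14) and was noticed after its value was seen. For PLCE1 the window median was -0.35, with 6 lower and 3 higher, and less this median its change was -0.11. Chromosome 10 had a median of -0.29. The window of PLCB2 had a median close to 0 (-0.00), so its change was the same less the median, -1.02, with 5 of the 20 genes lower, 3 of them past both thresholds, and 2 higher. Of the lower genes, ANKRD63 (-1.76), BMF (-1.13) and BMF-AS1 (-1.35) fell past both thresholds, BMF and its antisense gene being named after their values were seen, while PAK6 (-0.15) did not pass the test. ANKRD63 lies inside PLCB2 on the same strand and is not a flanking gene. INAFM2, which starts after PLCB2, was lower (-0.56), and ENSG00000260648, which starts before it, was higher (1.05). The part of chromosomal position in the changes of PIP5K1C, PLCG1 and PLCE1 was not tested.

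The 3 genes whose levels over the 6 libraries were most like those of PIP5K1C, by the smallest root mean square difference of centred log2 CPM, were CLPTM1 (0.03), JOSD2 (0.05) and GRWD1 (0.05), with log2 fold changes of 1.10, 1.10 and 1.09. All 3 lie on chromosome 19. For PLCB2 they were FAM174C (0.08), RILP (0.11) and CD99 (0.12), on chromosomes 19, 17 and X. With 6 libraries in 2 groups, such likeness is mainly a like difference between the genotypes.

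The rest of the pathway was read from 11 lists of 155 genes, of which 144 were tested. At an adjusted p under 0.05 in edgeR's test, 41 were higher and 25 lower in MUL1(-/-) libraries, against 18.8% higher and 18.7% lower of all tested genes. Past both thresholds, 4 of the 144 were higher and 3 lower, against 4.23% higher and 3.87% lower of all tested genes. The median log2 fold change was 0.05. Of the 41 higher genes 30 (73.2%) lay in windows with a median above 0, and of the 25 lower genes 20 (80.0%) lay in windows with a median below 0. Over all tested genes with a position, these shares were 71.9% of the higher and 75.2% of the lower genes. In windows with a median past 0.3 in the same direction lay 15 of the 41 and 6 of the 25, 36.6% and 24.0%, against 36.7% and 30.9% over all such genes.

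Upstream of the beta isozymes stand Gq proteins and their receptors. Of 9 tested Gq subunits and RGS regulators, which shorten Gq signals, 4 were higher and 1 lower, with a median of 0.25. GNA11, an abundant Gq-class subunit, was read at 48.6 ± 2.1 CPM in WT and 92.4 ± 6.8 CPM in MUL1(-/-) libraries (SD, n = 3), a log2 fold change of 0.93 (SE 0.07). It lies on chromosome 19, in a window with a median of 0.35. GNAQ, the other widely expressed subunit, did not pass the test (-0.02, 95% interval -0.16 to 0.12). RGS4 rose from 1.19 ± 0.41 to 4.75 ± 1.2 CPM, a log2 fold change of 2.00 (SE 0.22). GNA15, which lies within the window of GNA11, passed both thresholds (1.49) at under 0.2 CPM in both genotypes. Of 23 tested Gq-coupled receptors 6 were higher and 3 lower, and only EDNRB, the endothelin B receptor, passed both thresholds, from 2.06 ± 0.13 to 0.530 ± 0.057 CPM (-1.96, SE 0.16). The most abundant receptors were the thrombin receptor F2R, which was lower (-0.27, adjusted p = 0.0201 by edgeR), and F2RL1, which was higher (0.36, adjusted p = 0.00621 by edgeR).

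Of the other phospholipase C genes 9 of 11 were tested, and PLCD4 was higher while PLCG2 and PLCXD1 were lower. PLCXD1, the most abundant, stood at -0.41 (SE 0.08), and PLCD3, the next, did not pass the test (0.04). Of 9 other phosphoinositide kinases PIP4K2B and PIP4K2C were higher, and PI4K2A and PI4K2B, which make phosphatidylinositol 4-phosphate on internal membranes, were lower. The main PI 4-kinases of the plasma membrane and Golgi, PI4KA (0.05) and PI4KB (0.12), did not pass the test. Small GTPases and phospholipase D that stimulate PIP5 kinases gave 1 higher and 2 lower of 7, with ARF1 at 0.03, which did not pass, and RHOA lower (-0.21).

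Among 17 phosphoinositide phosphatases 3 were higher and 3 lower, and INPP5K, a 5-phosphatase that acts on PI(4,5)P2, rose past both thresholds from 29.3 ± 1.1 to 63.4 ± 1.9 CPM (1.12, SE 0.07). The most abundant of the list, INPPL1 (-0.02) and SACM1L (0.03), did not pass the test. Of 10 genes that rebuild and carry phosphatidylinositol 3 were higher and 1 lower, with PITPNA, a phosphatidylinositol transfer protein, at 73.3 ± 1.6 CPM in WT and 141 ± 3.0 CPM in MUL1(-/-) libraries (0.94, SE 0.06), while PITPNB did not pass (0.11). INPP5K and PITPNA lie close together on chromosome 17, each within the window of the other. Their windows, which share most of their genes, had medians of 0.55 and 0.58, so they are not separate places.

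Genes that work with PIP5K1C at adhesions and coated pits gave 7 higher and 2 lower of 14, with a median of 0.20, and none passed the fold threshold. AP2M1, a subunit of the clathrin adaptor that binds PI(4,5)P2, was higher (0.57, SE 0.07), and clathrin heavy chain CLTC did not pass (-0.00). Downstream, 5 of 18 genes for inositol trisphosphate receptors and inositol phosphate enzymes were higher and 5 lower, with a median of 0.01. ITPR3, the most abundant receptor (0.03), and IP6K2 (-0.03) did not pass the test, and IP6K3 fell past both thresholds (-2.17) from a WT level of 0.266 ± 0.11 CPM. Of 11 tested diacylglycerol kinases and lipases 3 were higher and 2 lower. DAGLA, the lipase that turns diacylglycerol into the endocannabinoid 2-AG, fell from 10.1 ± 0.54 to 4.90 ± 0.38 CPM (-1.05, SE 0.10), and DGKB rose at low level from 0.211 ± 0.080 to 0.677 ± 0.16 CPM (1.67, SE 0.29). DGKZ, the most abundant kinase of the list, was higher (0.37) and DGKH did not pass (0.14). Diacylglycerol effectors gave 6 higher and 2 lower of 17, PRKD3 being higher (0.28) and PRKCA not passing the test (-0.11).

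Cell markers were read beside these changes. All 8 genes generally seen in HEK293 were tested, and 2 were higher and 3 lower at an adjusted p under 0.05 in edgeR's test. The summed level of the 8 was 1636, 1488 and 1412 CPM in WT and 1188, 1225 and 1056 CPM in MUL1(-/-) libraries, without overlap. VIM (842 ± 93 CPM in WT), KRT8 (324 ± 19) and CDH2 (62.2 ± 1.9) were abundant in both genotypes, while PAX2 fell from 9.46 ± 1.5 to 2.72 ± 0.72 CPM (-1.80), KRT8 was lower (-0.93) and NEFM higher (1.06). The summed level of 5 blood cell markers was 0.742 to 0.984 CPM in WT and 1.24 to 1.97 CPM in MUL1(-/-) libraries, and that of 3 endothelial markers was 0.0953 to 0.247 and 0.460 to 0.711 CPM, with CD3E and CDH5 at or near 0 in all libraries. PTPRC, CD79A, PECAM1 and VWF rose past both thresholds, each at a mean of 0.529 CPM or less. The summed level of 5 fibroblast markers was 23.9 to 31.6 CPM in WT and 28.1 to 37.2 CPM in MUL1(-/-) libraries. Of these, DCN (1.30) and LUM (3.09) rose and the most abundant, COL1A1, was lower (-0.39). The 3 hepatocyte markers summed to 0.344 CPM or less. The part of these shifts in the changes of the phospholipase C and PIP5 kinase genes was not tested.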

How the data were processed

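RNA of 3 WT and 3 MUL1(-/-) HEK293 libraries was measured as counts. For each library the authors deposited unnormalized counts of reads in the exon bins of a flattened annotation. The submitters' processing notes name Trimmomatic 0.36, STAR 2.5.2b and the GRCh38 build; the counting program and its use of strand are not given in the sources used here. Bins were summed per gene identifier. Bins under identifiers that join overlapping genes, with 21.0% of counts, were split among genes with the exons GENCODE 29 lists on their strand, and bins touching several genes, with 4.36% of counts, were left out, as were unplaced bins (0.017%). The bins of PLCG1 came from such a joined identifier.

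Gene counts were compared with the quasi-likelihood test of edgeR 4.0.16 in R 4.3.3 (filterByExpr, TMM), and exon bins with diffSpliceDGE, with Benjamini-Hochberg adjustment over everything tested. The study's methods use DESeq2's Wald test; DESeq2 1.42.0 and limma 3.58.1 (voom) were alternatives here. In simulated data for WT against MUL1 KO, with 200 of 24683 genes changed by a log2 fold change of 2, edgeR recovered 200 with 0 false calls. The bin test recovered 190 of 200 changed bins among 12811 genes. It gave 4 false calls in unchanged genes and 104 in other bins of changed genes. The simulation gave every gene and bin the same fixed dispersion, changed only well-counted ones and drew bins without shared reads. It therefore cannot show how changes near the fold threshold, or at counts as low as those of PLCB2, are called. Within a genotype, pairs of libraries were compared by chi-square per degree of freedom over the most counted bins. Replicates 1 and 2 gave 2.75 in WT and 4.77 in MUL1(-/-) libraries, and the pairs with replicate 3 gave 7.82 to 9.51. Sampling noise alone gives about 1. Separate library preparations of 1 culture could also exceed that noise, so these values do not show separate cultures. Each library was kept as a sample, as labelled. Precision follows the summed counts, a floor of 3 counts is 0.0210 to 0.0246 CPM, and 95% intervals of fold changes are 1.96 SE each way. The SE was taken as the absolute log2 fold change over the square root of the test's F statistic. These intervals are somewhat narrower than the test implies. For PIP5K1B the interval, -0.612 to -0.009, leaves out 0 though the unadjusted p of edgeR's test was 0.062. The 10 genes and all lists were chosen with earlier results of these data known, the lists by hand from general knowledge. The rule for names took the 10 genes, MUL1, the list genes past both thresholds (up to 4 a list) with the 2 most abundant of each list, the 2 tested genes nearest by start before and after PIP5K1C and PLCB2, and the 3 genes most like each of these, at a mean of at least 1 CPM and with 0.01 CPM added before the log2. Genes that a count of 5 or fewer needed, and the markers, were named after their values were seen. Figures were drawn with Python 3.11.15 and matplotlib 3.10.9.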

Additional observations from a re-analysis of the deposited data

How the results depend on the processing

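The 5 genes with an adjusted p under 0.05 kept their direction in every gene-level fit in which they were tested, and their side of that threshold in each but glmTreat, which tests against an absolute log2 fold change of 1 and called 0 of the 10 genes, with 288 genes higher and 322 lower among all genes. PLCB2 was not tested with at least 1 CPM in 3 samples or with the most counted bin. PIP5K1C ranged from 0.99 to 1.15 and PLCB2 from -1.24 to -0.88 over the other fits. The count of genes lower past both thresholds was 0 instead of 1 without a low-count filter, with a minimum of 1 CPM in 3 samples, with library totals as the scale, with the most counted bin, with unshared bins and with glmTreat, and that of genes higher was 0 less the median of the neighbours. With the adjusted p alone, 2 were higher and 3 lower, and 4716 and 4706 of all genes. At least 1 CPM in 3 samples left 331 genes higher and 446 lower past both thresholds, where 1064 and 973 passed in all. With each single replicate left out there were 0 to 1 genes higher and 0 to 1 lower past both thresholds, 2 to 2 higher and 3 to 4 lower at the adjusted p alone, and 916 to 2005 genes with changed exon usage against 1843 (916 without WT replicate 2 and 1097 without WT replicate 1). No tested exon bin of the 9 genes with such bins was called in any of the 8 alternatives of the exon test, and PLCB2 had no tested bin in any of them. Signs turned only for genes near 0: PLCB1 ranged from -0.018 (without MUL1 KO replicate 3) to 0.087 and PIP5K1A from -0.016 (without WT replicate 2) to 0.056 with a replicate left out, and PIP5K1A was -0.055 with the most counted bin. The cause was not tested. Same-numbered libraries deviated together with correlations of -0.08, 0.16 and 0.10. WT replicates 2 and 3 were closest to the MUL1 KO library of their own number, but WT replicate 1 was closest to MUL1 KO replicate 2 (0.10). The numbers were therefore not taken as pairs in the main fit. With the replicate block, PIP5K1C was 1.06 and PLCB2 -1.03, 1 gene was higher and 1 lower past both thresholds, and 1015 and 940 in all; the block changed no call among the 10 genes.

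Limits are the low counts of PLCB2 and PIP5K1B, reads counted in several bins, and 3 libraries a group, of which the clone is not given and separate cultures are not stated for the RNA.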
